A study of Mus musculus with 12 samples.

Results

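The comparison is between mouse bone marrow-derived macrophages given an siRNA against Ehd1 (siEhd1) and the same kind of cells given a control siRNA (siControl), both kept resting, that is, without lipopolysaccharide. It takes 6 of the 12 libraries of the series, chosen by their labels alone: 3 M0-siEHD1 and 3 M0-siCON libraries, with polyA RNA counted per gene. The marrow came from male C57BL/6J mice aged 8 weeks. No untransfected libraries were among the samples, so all 6 libraries carry an siRNA, and a difference can come from either of them. No label gives the siRNA sequences, the time after transfection, or whether each library of a group is its own animal or culture. So the p-values measure only how these libraries vary, and that variation may be technical. By its title, the study concerns EHD1 and sortilin in inflammation and atherosclerosis.

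EHD1 is an ATPase that shapes membranes of the endocytic recycling compartment, from which internalised receptors return to the cell surface. Bone marrow-derived macrophages are grown from marrow progenitors with a growth factor that acts through the receptor CSF1R, and resting cultures hold some dividing cells beside those that have left the cycle. An siRNA lowers its target by near-perfect pairing, and it is also known that the seed of an siRNA, bases 2 to 8 of its guide strand, can lower other mRNAs that match it in their 3′ UTR, usually by a moderate amount.

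Ehd1 itself, on chromosome 19 of GRCm38 from 6276725 to 6300096 on the plus strand, was at 53.3, 52.1 and 54.4 CPM (counts scaled to library size, per 1e6) in the siControl libraries and 33.6, 32.0 and 29.0 CPM in the siEhd1 libraries. The groups did not overlap, and 59.2% of the control level remained (edgeR log2 fold change -0.76, SE 0.08, adjusted p = 5.7e-07). Its paralog Ehd4 was not called (0.04, SE 0.05, edgeR adjusted p = 0.65). The sorting receptor gene Sort1 was at 100.9, 101.6 and 103.7 CPM with siControl and 63.3, 75 and 74.2 CPM with siEhd1, again without overlap. A lack of overlap was common: of 12164 tested genes, 22.7% lay lower and 21.4% higher with siEhd1 in this way.

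The 6 libraries held 21093450 to 21906886 counts and 14353 to 14753 detected genes each. On the first principal component, which held 61.3% of the variance, the siControl libraries lay at -28.2, -17.5 and -13.3 and the siEhd1 libraries at 20.7, 23.2 and 15.2, so the groups separated and siControl replicate 1 lay farthest out. All 10 macrophage markers were above 5 CPM. With siEhd1, 5 were lower and 0 higher, against 14.2% lower and 14% higher over all tested genes. Their summed level was 34200 to 35166 CPM with siControl and 29740 to 30916 CPM with siEhd1. Lyz2 had the largest fall in that sum (mean 14232 to 11312 CPM). Adgre1 (2013 to 2232 CPM), Cd68, Itgam, Aif1 and Ctsd were not called. In bulk RNA, fewer cells of a type and less RNA per cell cannot be told apart. Markers of neutrophils, dendritic cells, B cells, T or NK cells, red cells and mast cells summed to at most 2.14 CPM per list in any library, with Pax5, Cd3e, Ncr1, Hba-a1 and Mcpt8 among those at 0. Stromal markers summed to 2.59 to 7.89 CPM with siControl and 1.62 to 6.19 CPM with siEhd1, with 1 of 5 tested lower and Lum at 0. Of 6 endothelial markers, Vwf and Kdr were above 5 CPM, and Pecam1 and Cdh5 stood at 0.38 and 0.15 CPM with siControl. The endothelial sum was 193 to 207 CPM with siControl and 160.2 to 183 CPM with siEhd1, with Kdr called lower (24.3 to 14.6 CPM, -0.73) and Vwf not called (174 to 156 CPM). The mast cell marker Kit was called higher (0.66 to 1.22 CPM, 0.89). The part of other cell types in the results below was not tested.

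Most of the response was moderate in size. Of 12164 genes tested, 28.2% were called, meaning an edgeR quasi-likelihood test with a Benjamini-Hochberg adjusted p under 0.05. The 1704 higher genes were 14% of those tested and the 1728 lower genes 14.2%. The median log2 fold change was 0.36 among the higher genes and -0.31 among the lower genes, against -0.02 over all tested genes. An absolute log2 fold change under 0.5 described 64.1% of the higher genes and 79.3% of the lower genes. The directions parted at the large sizes: 283 genes (2.33%) rose at least 2-fold and 55 (0.452%) fell at least 2-fold. A stricter test, that the change exceeded 1.2-fold, called 561 genes higher (4.61%) and 338 lower (2.78%). Without siControl replicate 1 the lower count was 1148, and without siEhd1 replicate 1 the count lower by more than 1.2-fold was 225.

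Summed levels went the other way. Over called genes, the higher genes gained 30076 CPM and the lower genes dropped by 44501 CPM. Several of the most abundant macrophage transcripts were among the lower genes. CPM values here carry a further scaling factor per library (1.05 to 1.08 with siControl, 1.07 to 1.09 with siEhd1). Their total therefore differs between libraries, and these sums are not amounts of RNA. The part of that scaling in the gap was not tested. How small a change could be called depended on level: among genes at 10 to 100 CPM the median SE was 0.07 and the smallest called change 0.14, while under 1 CPM the median SE was 0.39 and the smallest called change 0.69. The share of genes called was 7.93% under 1 CPM, 24.1% at 1 to 10 CPM, 30.5% at 10 to 100 CPM, 38.2% at 100 to 1000 CPM and 34.6% among the 81 genes at 1000 CPM and over. None of those 81 changed 2-fold, and 202 of the 283 genes that rose at least 2-fold were below 10 CPM. In simulated counts, known changes were given only to genes with a mean of 10 CPM or more in the resting libraries. Among these the test called 44% of genes changed 1.2-fold and 94% of those changed 1.5-fold. So a part of the changes near 1.2-fold was below reach at this depth. Recovery of changes below 10 CPM was not simulated.

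**Figure D1:**
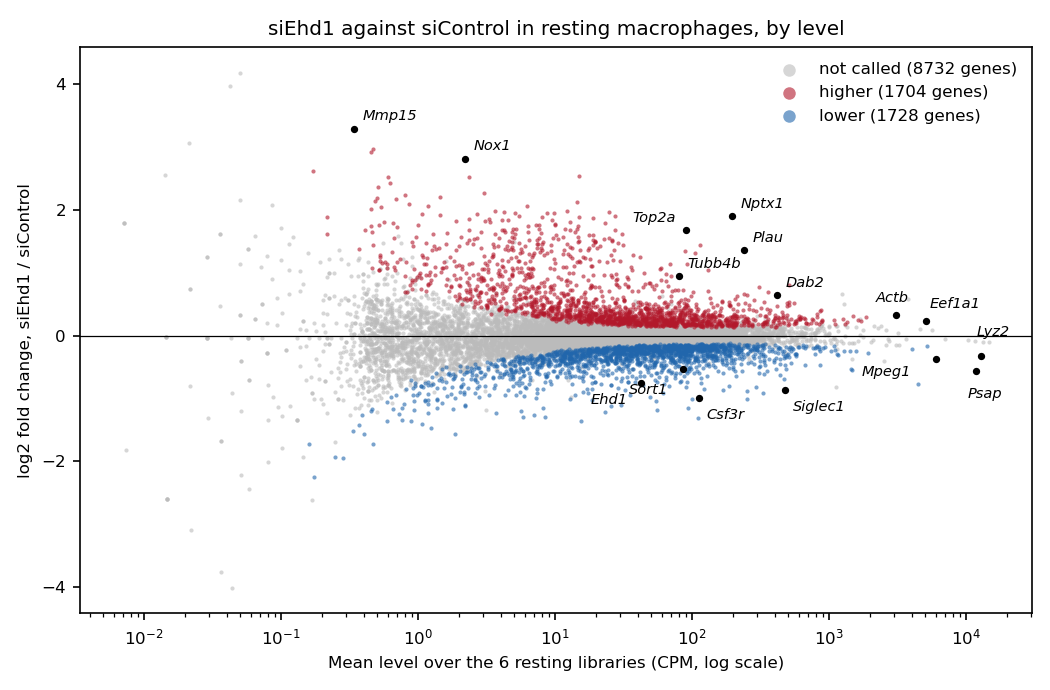
Log2 fold change (siEhd1 relative to siControl, vertical axis) of each tested gene against its mean level over the 6 resting libraries in CPM (horizontal axis, log scale). Points are genes, coloured by call; large increases lie mostly at low levels, and the most abundant called genes, such as Lyz2, Psap and Mpeg1, lie below 0.

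The genes with the highest levels per exon length were taken first, 10 in each direction. Among those that fell were lysosomal and immune effector genes of the macrophage. Psap (chromosome 10, 60277627 to 60302597, plus strand) encodes prosaposin, the precursor of the saposins that help lysosomal enzymes degrade sphingolipids. It stood at 13931, 13439 and 14851 CPM with siControl and 9447, 9894 and 9202 CPM with siEhd1. The groups lay far apart, and 67.6% of the control level remained (-0.56, SE 0.08, edgeR adjusted p = 1.4e-05). Lyz2, the gene of lysozyme, read 14222, 14324 and 14150.2 CPM with siControl and 10965, 11027 and 11944 CPM with siEhd1 (-0.33, SE 0.08, adjusted p = 0.0037 by edgeR). Mpeg1, which encodes the pore-forming protein perforin-2, fell from 7114, 6415 and 7038 CPM to 5049, 5505 and 5289 CPM (-0.38, SE 0.06, edgeR adjusted p = 9.8e-05). Every siEhd1 library was below every siControl library for these genes, as the rule for naming them required. The other genes of this group were the cathepsin gene Ctss (-0.17), the complement genes C1qb and C1qc (-0.25 each), the growth factor receptor gene Csf1r (-0.21), the class I gene H2-K1 (-0.28), the interferon-induced gene Ifitm3 (-0.35) and Actg1 (-0.25). The calls of Ctss, C1qb, C1qc, Csf1r and Actg1 were each lost when 1 of at least 2 libraries was left out (edgeR adjusted p up to 0.13, 0.10, 0.12, 0.13 and 0.08), and those of the other 5 held under every alternative run.

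The abundant genes that rose were of mixed function and included Actb, Tmsb4x and Capg of the actin cytoskeleton and Eef1a1 of protein synthesis. Actb, the gene of beta-actin, stood at 2652, 2701 and 2863 CPM with siControl and 3375, 3620.5 and 3356 CPM with siEhd1 (0.33, SE 0.06, adjusted p = 0.00053 by edgeR). Actg1, the gene of the other cytoplasmic actin, was at 1600.5, 1659.6 and 1857 CPM against 1449, 1537 and 1321 CPM, so these 2 actin genes went in opposite directions. Their coding sequences are close and reads could be split between them. Tmsb4x, whose product binds actin monomers, rose by 0.22, the integrin beta-2 gene Itgb2 by 0.31, the S100 gene S100a4 by 0.41 and the elongation factor gene Eef1a1 by 0.24. Also named by the rule were Anxa1 (0.24), Capg (0.18), S100a11 (0.43), Cyba (0.16) and Tpt1 (0.19). Only Actb, Tmsb4x, S100a4 and Itgb2 of these 10 stayed called under every alternative. Eef1a1 lost its call without siControl replicate 1 (adjusted p = 0.056), and the other 5 lost it without at least 2 of the 6 libraries (adjusted p up to 0.18).

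**Figure D2:**
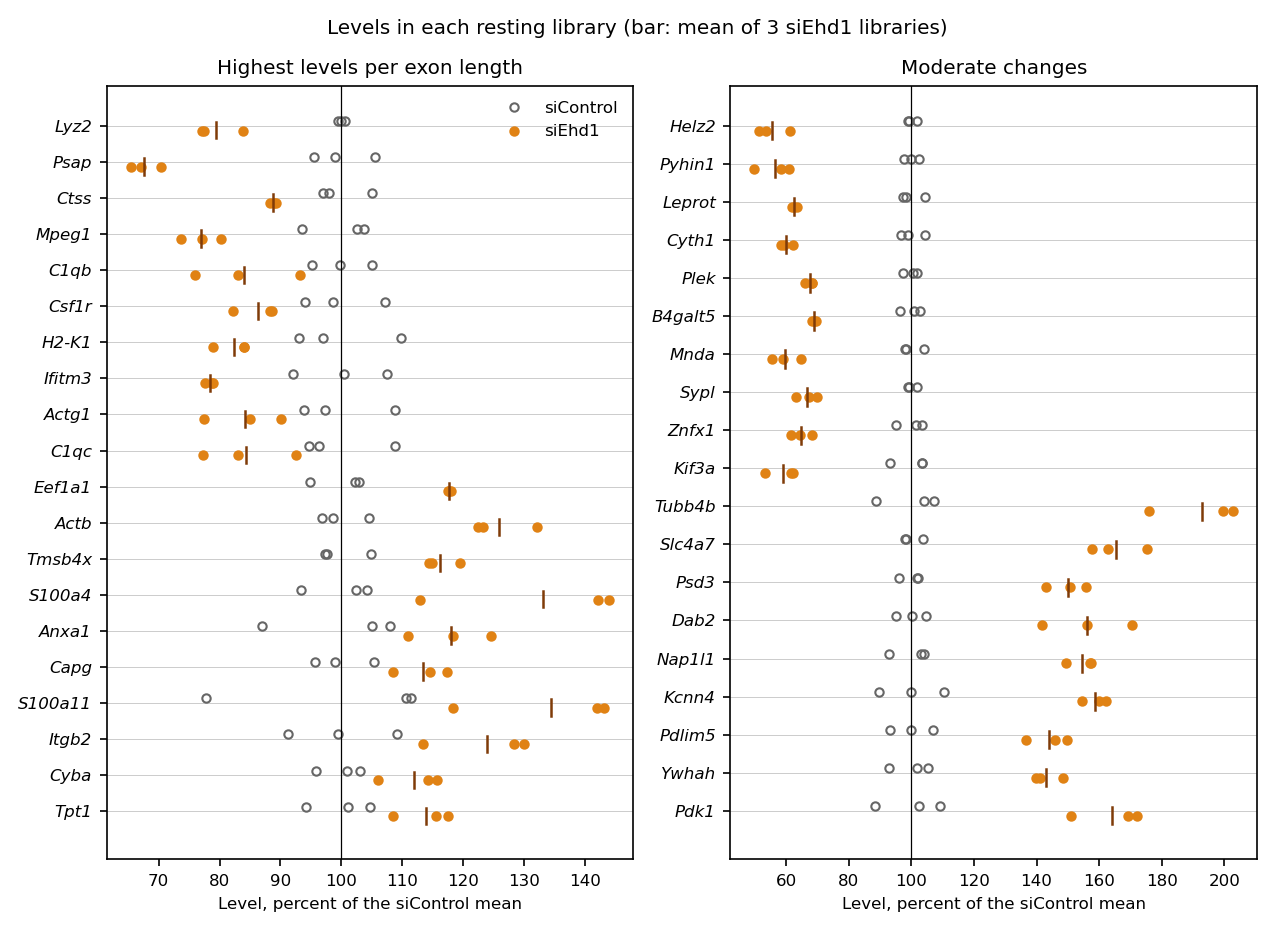
Level in each resting library as a percent of the mean of the 3 siControl libraries (horizontal axis), for the 20 called genes with the highest level per exon length (left) and 19 of the 20 moderate changes with the smallest p (right). Open circles are siControl libraries, filled circles siEhd1 libraries and bars the siEhd1 mean; Psap sits at 67.6% and Actb at 126% of control, and the genes on both sides were chosen for groups that do not overlap.

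The next 10 increases were chosen by size among genes with a mean of 50 CPM or more in either group, leaving out genes that earlier text on these data had named. Of those left out, 2 rose as far (Ccnd1 and Scd2). Nptx1 (chromosome 11, 119538719 to 119547753, minus strand) encodes neuronal pentraxin 1, a secreted protein of the pentraxin family best known from synapses. It stood at 56.0, 91.7 and 101 CPM with siControl and 324, 324 and 281 CPM with siEhd1, which is 373% of control (1.90, SE 0.19, edgeR adjusted p = 0.0001). Plau, the gene of the urokinase plasminogen activator, was at 74.2, 147 and 182 CPM against 392, 383 and 259.5 CPM (1.36, SE 0.31, edgeR adjusted p = 0.011). Its siControl libraries differed among themselves more than those of most named genes, and the call was lost when the resting libraries were fitted alone and with a replicate block (adjusted p up to 0.08). The metallothionein gene Mt1, which answers to zinc and other metals, rose from 57.2, 53.6 and 62.1 CPM to 121, 138 and 119.8 CPM (1.13, SE 0.14). The topoisomerase gene Top2a was at 29.7, 48.1 and 51.4 CPM with siControl and 138, 154 and 121 CPM with siEhd1 (1.68, SE 0.17). For Nptx1, Plau and Top2a alike, siControl replicate 1 was the lowest library, as it was among the siControl libraries for 70.1% of all 1704 higher genes. Mki67 (1.44), the helicase subunit gene Mcm5 (1.29), the condensin subunit gene Ncapd2 (1.25), the tubulin-binding protein gene Stmn1 (1.13) and the ribonucleotide reductase gene Rrm1 (1.05) rose as well.

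The 10 decreases were chosen in the same way. Of the genes left out, 6 fell as far (Ifit2, Ifit3, Irf7, Oas3, Oasl2 and Slc40a1, the last at -1.18). Csf3r (chromosome 4, 126024550 to 126044440, plus strand), the receptor gene for granulocyte colony-stimulating factor, fell from 167, 146 and 133 CPM to 71.7, 73.4 and 77.5 CPM (-1.0, SE 0.07, edgeR adjusted p = 1.9e-08). Siglec1, the gene of the sialic acid-binding receptor sialoadhesin, fell from 705, 545 and 593 CPM to 315, 327 and 368 CPM (-0.87, SE 0.08, edgeR adjusted p = 2.1e-07). Gas6, the ligand that bridges dying cells to the receptor MERTK, was at 418, 348 and 353 CPM against 189, 209 and 233 CPM (-0.83, SE 0.09, edgeR adjusted p = 6.8e-06). Each of these kept between 49.9% and 56.4% of its control level. Ly6a (-1.04), the non-classical class I gene H2-T24 (-0.91), Rsad2 (-0.98), Ifi204 (-0.86), Helz2 (-0.85) and Pyhin1 (-0.83) complete the group together with Thbs1. Thbs1, the gene of thrombospondin 1, read 100.4, 140.5 and 160.1 CPM with siControl and 64.3, 71.6 and 62.5 CPM with siEhd1 (-1.01, SE 0.25, adjusted p = 0.018 by edgeR). Its call was lost without siControl replicate 2 or 3, without siEhd1 replicate 1 or 3 and with the replicate block (adjusted p from 0.0002 to 0.068 over the alternatives). Reads of Ly6a and H2-T24 could be split with close family members.

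Moderate changes, defined as an absolute log2 fold change of 0.3 to 1 with at least 50 CPM in both groups, were named by smallest p and by groups that did not overlap, 10 per direction. These 20 were called under every alternative run, which a choice by smallest p favours. The lower group was of mixed function. Leprot (chromosome 4, 101647718 to 101659364, plus strand), whose product endospanin-1 controls the surface level of the leptin receptor, fell from 139, 141 and 149 CPM to 89.7, 88.7 and 90.8 CPM (-0.68, SE 0.05, edgeR adjusted p = 1.1e-08). Cyth1, which encodes cytohesin-1, an exchange factor for ARF GTPases, fell from 110.3, 113 and 119 CPM to 66.5, 67.7 and 70.8 CPM (-0.74, SE 0.06, edgeR adjusted p = 1.8e-08). B4galt5, a galactosyltransferase gene of glycosphingolipid synthesis, fell from 225, 236 and 240.5 CPM to 159, 161 and 162 CPM (-0.54, SE 0.05, edgeR adjusted p = 5.6e-08). The groups did not overlap for these genes, as the rule for naming them required. Also lower were the pleckstrin gene Plek (-0.57), the kinesin motor gene Kif3a (-0.76), the vesicle protein gene Sypl (-0.58), the antiviral helicase gene Znfx1 (-0.62) and Mnda (-0.74). Helz2 and Pyhin1 were named here too.

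The moderate increases were of mixed function. Tubb4b, a beta-tubulin gene (chromosome 2, 25222160 to 25224702, minus strand), rose from 48.6, 56.9 and 58.6 CPM to 109, 111 and 96.2 CPM (0.95, SE 0.07, edgeR adjusted p = 1.3e-08). Slc4a7, a sodium bicarbonate cotransporter gene, rose from 63.1, 63.3 and 66.9 CPM to 105, 113 and 102 CPM (0.72, SE 0.06, edgeR adjusted p = 1.4e-08). Dab2, the gene of a clathrin adaptor, rose from 309, 339 and 325 CPM to 461, 554 and 507 CPM (0.64, SE 0.06, edgeR adjusted p = 2.4e-07). By the same rule, all siEhd1 libraries were above all siControl libraries for these 3 genes. Psd3, a further exchange factor gene for ARF GTPases, rose (0.58), as did the calcium-activated potassium channel gene Kcnn4 (0.67) and Pdk1, a kinase that restrains entry of pyruvate into the citric acid cycle (0.71). The histone chaperone gene Nap1l1 (0.63), Pdlim5 (0.53) and the 14-3-3 gene Ywhah (0.52) rose too.

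Of the called genes, 22 rose by a log2 fold change of 2 or more, and 1 fell as far. The 22 were at most at 25.6 CPM with siEhd1. Nox1, a superoxide-generating oxidase gene, stood at 0.48, 0.61 and 0.53 CPM with siControl and 3.97, 3.80 and 3.79 CPM with siEhd1 (2.82, SE 0.22, adjusted p = 2e-08 by edgeR), on 37 counts against 271 counts per group. The metalloproteinase gene Mmp15 rose by 3.29 (SE 0.61) on 4 counts against 44, and the phagocytic receptor gene Megf10 by 2.96 (SE 0.49) on 7 against 59. The siControl counts of Mmp15 and Megf10 were too few to meet the filter on low counts. Of the resting groups, only siEhd1, where they were high, could have admitted them to the test. A filter of this kind favours large increases among weakly expressed genes, and its part in these fold changes was not tested. The lower gene was Zfp811 (-2.25, SE 0.68), on 20 counts against 4. These 4 genes were chosen after their values were seen.

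To place the changes by function, 46 gene lists were counted against the shares over all tested genes, 14% higher and 14.2% lower. No test was run on a list, because the lists were chosen with earlier results of these data known, and membership overlaps between some of them.

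**Figure D3:**
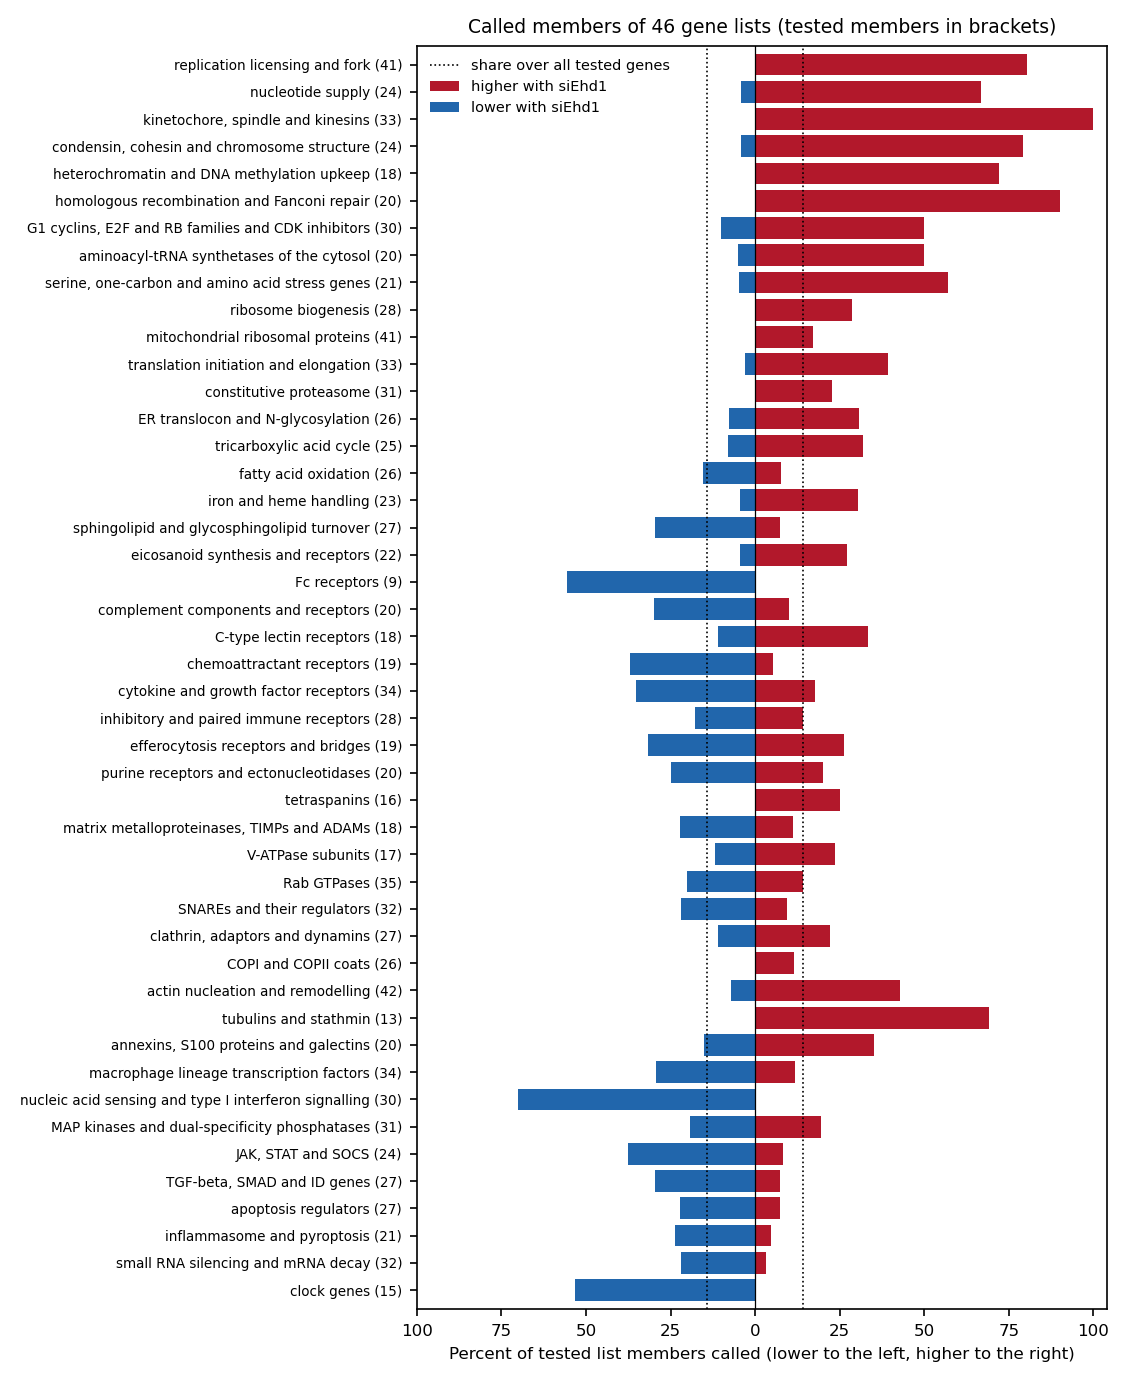
Share of the tested members of 46 gene lists that were called higher (to the right) or lower (to the left) with siEhd1, in percent, with the number of tested members in brackets. Dotted lines mark the shares over all tested genes, 14% higher and 14.2% lower; all 33 kinetochore, spindle and kinesin genes lie to the right, and 21 of 30 nucleic acid sensing and interferon signalling genes to the left.

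Genes of chromosome duplication and segregation were mostly higher. Over the 7 proliferation lists, siControl replicate 1, which lay farthest out on the first principal component, was the lowest siControl library for 126 of the 147 higher genes (85.7%). With any 1 library left out, that one included, 28 to 33 replication genes and 33 kinetochore genes were higher. Of 41 replication genes 33 rose and 0 fell (median 0.61), with Mcm2, a subunit of the replicative helicase, at 12.1, 15.1 and 17.3 CPM against 35.7, 35.8 and 28.2 CPM (1.16, SE 0.11). All 33 kinetochore, spindle and kinesin genes rose (median 1.44), among them the chromokinesin gene Kif4 (1.78, SE 0.13) and the cytokinesis gene Ect2, which went from 5.90, 6.88 and 6.67 CPM to 18.8, 18.8 and 16.1 CPM. Of 24 condensin, cohesin and chromosome structure genes 19 rose and 1 fell, and of 20 homologous recombination and Fanconi genes 18 rose and 0 fell (medians 0.89 and 1.22). The lower member was the condensin II gene Ncapg2 (-0.37). The recombination count was 11 when a mean of 5 CPM was asked for, since many of its members, such as Fancd2 at 3.95 CPM with siControl, are weakly expressed. Of 18 heterochromatin and DNA methylation genes 13 rose and 0 fell (median 0.38), including the lamin gene Lmnb1 (1.52), the histone methyltransferase gene Ezh2 (0.85) and Uhrf1 (1.69), which guides maintenance methylation.

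The G1 control genes were less uniform. Of 30 genes 15 rose and 3 fell (median 0.19). The mitotic transcription factor gene Foxm1 rose from 8.85, 9.95 and 11.8 CPM to 29.1, 32.5 and 24.9 CPM (1.5, SE 0.11, edgeR adjusted p = 1.1e-08), and Mybl2 (1.52), E2f7 (1.84) and Ccnd1 (1.32) rose with it. Among CDK inhibitors the members of the INK4 family Cdkn2c (0.98) and Cdkn2d (0.60) were higher, whereas the p27 and p57 genes Cdkn1b (-0.21) and Cdkn1c (-0.39) were lower. The Myc antagonist gene Mxd4 fell (-0.25), and Mxd3, of the same family, rose (1.91). Of 24 nucleotide supply genes 16 rose and 1 fell (median 0.28): CTP synthase (Ctps, 1.48, SE 0.12) and the thymidine genes Tk1 (1.27) and Tyms (1.35) rose most clearly, the purine enzyme genes Paics (0.19) and Adsl (0.19) rose slightly, and the deoxycytidine kinase gene Dck fell (-0.23).

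About as many genes of amino acid supply and tRNA charging rose as did not. Of 21 serine, one-carbon and amino acid stress genes 12 rose and 1 fell (median 0.47). Atf4, the transcription factor of the amino acid response, was at 64.4, 76.6 and 75 CPM with siControl and 93.4, 92.4 and 89.5 CPM with siEhd1 (0.35, SE 0.06, adjusted p = 0.00031 by edgeR). The asparagine synthetase gene Asns (1.09), the serine pathway genes Phgdh (1.55) and Psat1 (1.29), the folate enzyme gene Mthfd2 (1.39) and the amino acid transporter gene Slc7a5 (1.65, SE 0.16) rose further. Of 20 cytosolic tRNA synthetase genes 10 rose and 1 fell (median 0.19), from Dars (0.19) to Aars (0.41). The exception was Iars, the isoleucine enzyme, at 71.8, 72.7 and 73.4 CPM against 52.1, 55.0 and 45.0 CPM (-0.52, SE 0.07, edgeR adjusted p = 1.5e-05). The lower member of the serine list, Cebpg (-0.21), lost its call without siControl replicate 2 or siEhd1 replicate 2.

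Genes of translation, protein import and breakdown gave smaller counts and smaller steps. Of 33 initiation and elongation genes 13 rose and 1 fell (median 0.13), with the cap-binding factor gene Eif4e at 0.50 (SE 0.06) and Eif5a at 0.49 (SE 0.07). The lower member was the repressor gene Eif4ebp2 (-0.21), a call lost without siControl replicate 1 or 3 or siEhd1 replicate 1 or 2. Of 28 ribosome biogenesis genes 8 rose and 0 fell (median 0.15), among them the snoRNP gene Nop56 (0.45) and Nhp2 (0.51). That count was 14 with library totals as the only scaling and 13 with the resting libraries fitted alone. Of 31 proteasome genes 7 rose and 0 fell (median 0.10), and of 41 mitochondrial ribosomal protein genes 7 rose and 0 fell (median 0.11). The proteasome count was 2 without siControl replicate 1 or siEhd1 replicate 1, and 4 without siControl replicate 2 or with the replicate block. The mitochondrial count was 3 without siControl replicate 1 and 2 without siEhd1 replicate 1 or 3. Of 26 genes of the ER translocon and N-glycosylation 8 rose and 2 fell, and the higher count was 4 without siControl replicate 1 or siEhd1 replicate 1 and 5 without siControl replicate 2 or siEhd1 replicate 2 or with the replicate block. The 4 subunit genes of the translocon-associated complex rose together (Ssr1 0.26, Ssr2 0.25, Ssr3 0.22, Ssr4 0.32), while the signal recognition receptor gene Srpr fell (-0.32) and so did Sec61a1 (-0.18), with 1 of the lower calls lost without siEhd1 replicate 3.

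In energy metabolism, isocitrate dehydrogenase genes were called in both directions. Of 25 citric acid cycle genes 8 rose and 2 fell (median 0.12). The mitochondrial isocitrate dehydrogenase genes Idh2 (0.40, SE 0.06) and Idh3a (0.41, SE 0.08) rose, and the cytosolic Idh1 fell (-0.29). The cytosolic aconitase gene Aco1 was the other lower member (-0.17). One of the lower calls was lost without siControl replicate 2 or 3, without siEhd1 replicate 1 or 3 and with the replicate block. Of 26 fatty acid oxidation genes 2 rose and 4 fell, and 2 fell without siEhd1 replicate 1. Cpt1a, which commits fatty acids to mitochondria, stood among the lower ones (-0.30, SE 0.06). Of 27 sphingolipid genes 2 rose and 8 fell (median -0.08), with 5 lower without siEhd1 replicate 1. Psap, described above, and the sphingomyelin synthase gene Sgms2 (-0.69) fell, and the activator gene Gm2a rose (0.36, SE 0.06). The higher count was 4 without siControl replicate 3 or with the resting libraries alone, and 5 with library totals alone.

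Among iron genes, the transferrin receptor gene Tfrc was at 33.8, 35.3 and 37.5 CPM with siControl and 50.9, 54.5 and 46.4 CPM with siEhd1 (0.51, SE 0.07, adjusted p = 2.2e-05 by edgeR), and the ferrireductase gene Steap3 rose too (0.28), against a fall of the exporter gene Slc40a1 (-1.18). The list had 7 of 23 higher and 1 lower, with 4 higher without siEhd1 replicate 2 or 3 or with the replicate block and 2 lower with the resting libraries alone. Among eicosanoid genes 6 of 22 rose and 1 fell. The phospholipase gene Pla2g4a, which releases arachidonate, was at 6.65, 8.20 and 8.12 CPM against 15.3, 14.6 and 12.9 CPM (0.90, SE 0.09), and the cyclooxygenase gene Ptgs1 rose by 0.95 (SE 0.12). The prostaglandin E2 receptor gene Ptger2 fell (-0.64, SE 0.10). The higher count was 3 without siControl replicate 1 or 2 or siEhd1 replicate 1 or 2. The lower count was 3 with no filter on low counts, and 2 without siControl replicate 2 or siEhd1 replicate 3, with a mean of 5 CPM asked for, with the resting libraries alone and with DESeq2.

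Where receptors for antibodies and chemoattractants changed, most were lower. Of 9 Fc receptor genes 5 fell and 0 rose (median -0.24). Fcgr2b, the inhibitory receptor for IgG, was at 74.4, 85.0 and 78.8 CPM against 53.3, 53.4 and 53.9 CPM (-0.57, SE 0.06, edgeR adjusted p = 6.3e-07), so it fell beside the activating receptor genes Fcgr1 (-0.80), Fcgr3 (-0.26) and Fcgr4 (-0.38). With library totals alone 1 Fc receptor gene was higher. Of 19 chemoattractant receptor genes 7 fell and 1 rose (median -0.13). Cxcr4, which holds cells in marrow, fell from 410.5, 374 and 369 CPM to 272, 278 and 308 CPM (-0.43, SE 0.06, edgeR adjusted p = 1.1e-05), and the chemerin receptor gene Cmklr1 from 27.8, 23.5 and 22.2 CPM to 14.1, 14.8 and 15.3 CPM (a log2 change of -0.73). The oxysterol receptor gene Gpr183 rose (0.72, SE 0.10). Without siEhd1 replicate 1, 4 chemoattractant receptor genes were lower. The higher count was 2 without siControl replicate 3 or siEhd1 replicate 3, with a mean of 5 CPM asked for, with DESeq2 and with limma-voom. Of 34 cytokine and growth factor receptor genes 12 fell and 6 rose, the former including Tgfbr2 (-0.39), Il17ra (-0.53), Il10ra (-0.33) and Il6ra (-0.40). The 6 were 2 without siControl replicate 1 and 3 without siEhd1 replicate 1 or 2.

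Complement and uptake genes moved in both directions. Of 20 complement genes 6 fell and 2 rose. The central component C3 was at 95.8, 77.0 and 68.8 CPM against 51.6, 48.3 and 47.7 CPM (-0.71, SE 0.10, edgeR adjusted p = 7.1e-05), and Cfp, the gene of properdin, which stabilises the C3 convertase, rose from 133, 131 and 139 CPM to 193, 200.3 and 196 CPM (0.55, SE 0.06, edgeR adjusted p = 1.2e-06). Without siControl replicate 1 or siEhd1 replicate 1 the lower count was 2. Among 18 C-type lectin genes 6 rose and 2 fell, with Clec4a2 (0.72), the mannose receptor gene Mrc1 (0.41) and Clec10a (0.39) higher and the partner receptors Clec4d (-0.38) and Clec4e (-0.59) lower. In the efferocytosis list 6 of 19 fell, among them the bridging molecules Gas6 and Mfge8 (-0.51, SE 0.06) and the receptor Mertk (-0.60). The 5 that rose in that list were 3 without siControl replicate 2 or siEhd1 replicate 1 and 2 without siEhd1 replicate 2. The ATP-gated channel genes P2rx4 (-0.46, SE 0.05) and P2rx7 (-0.36, SE 0.05) fell within a purine list of 5 lower and 4 higher of 20, and the higher count was 2 with a mean of 5 CPM asked for.

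Other surface lists had counts closer to the background. Of 28 inhibitory and paired receptor genes 4 rose and 5 fell, with Siglecf (0.89) higher and Cd274, the gene of the ligand PD-L1, lower (-0.46). The 5 were 3 without siControl replicate 2, without siEhd1 replicate 1 or 2 and with the replicate block. Of 16 tetraspanin genes 4 rose, among them Cd9 (0.38, SE 0.06) and Tspan7 (0.81). This count fell to between 1 and 2 without siControl replicate 1 or 2, without siEhd1 replicate 1 or 3 and with the replicate block. Of 18 metalloproteinase, TIMP and ADAM genes 2 rose and 4 fell, including the sheddase gene Adam17 (-0.32, SE 0.06). The higher count was 5 with the resting libraries alone or DESeq2, and the lower count 2 without siEhd1 replicate 1 or 3.

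In membrane traffic, 4 of 5 lists had members called in both directions, and most counts were near the background. The share called either way was 34.3% for Rab, 31.25% for SNARE, 33.3% for clathrin and 35.3% for V-ATPase genes. It was 11.5% for COPI and COPII genes, against 28.2% over all tested genes (14% higher and 14.2% lower). Of 35 Rab GTPase genes 5 rose and 7 fell. Rab5b, of early endosomes, was at 224, 214 and 221 CPM against 159.8, 178 and 165 CPM (-0.39, SE 0.05, edgeR adjusted p = 1.4e-05), while Rab4a, of fast recycling, rose (0.53). Without 1 library the Rab counts were as low as 1 higher (siControl replicate 1) and 3 lower (siEhd1 replicate 1), and they moved by over 1.5 times without siControl replicate 2 or 3 or siEhd1 replicate 2 or 3 as well. Of 32 SNARE genes 3 rose and 7 fell, with 4 lower without siControl replicate 2 or siEhd1 replicate 1 or 2, with library totals alone and with the replicate block. Stx12 (0.27) and Ykt6 (0.29) rose, and Gosr2 (-0.30) fell. Of 27 clathrin, adaptor and dynamin genes 6 rose and 3 fell, among them Ap1s1 (0.40, SE 0.05) and Dab2 higher and Picalm (-0.24, SE 0.05) lower. The lower count was 1 without siControl replicate 2 or siEhd1 replicate 2 or 3, with library totals alone, with no filter and with the replicate block. Of 17 V-ATPase genes 4 rose and 2 fell, with Atp6v1h (0.35) and Atp6ap2 (0.31) higher and Atp6v1d (-0.44, SE 0.05) lower. The 4 were 2 without siControl replicate 1, and the 2 were 1 without any of 4 libraries (siControl replicate 2 or 3, siEhd1 replicate 2 or 3), with library totals alone, with no filter, with the resting libraries alone and with the replicate block. Of 26 COPI and COPII genes 3 rose and 0 fell, and 5 rose with the resting libraries alone.

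Among cytoskeletal genes, tubulins were mostly higher and actin genes mixed. Of 13 tubulin and stathmin genes 9 rose and 0 fell (median 0.52), all 9 by more than 1.2-fold in the stricter test, with Tubb2a at 127, 140.2 and 145 CPM against 193, 188 and 177 CPM (0.44, SE 0.06, edgeR adjusted p = 7e-06) and Tubb6 (0.80), Tuba1b (0.81) and Tubb5 (0.69) further up. Reads could be split among tubulin genes. Of 42 actin genes 18 rose and 3 fell (median 0.11), including cofilin (Cfl1, 0.35), profilin (Pfn1, 0.26), filamin A (Flna, 0.29, SE 0.06) and 4 genes of the ARP2/3 complex (Arpc2 0.18, Arpc3 0.17, Arpc4 0.16, Arpc5 0.24). The higher count was 9 without siControl replicate 1 and 10 without siEhd1 replicate 2, and the lower count was 1 without siControl replicate 1 or 3 or siEhd1 replicate 1 or 3. Among annexin, S100 and galectin genes 7 of 20 rose and 3 fell. Lgals1 rose from 232, 264 and 314 CPM to 376, 377 and 349 CPM (0.44, SE 0.08) and Lgals9 (-0.53) and Lgals3bp (-0.48) fell. The 7 were 4 without siEhd1 replicate 1 or 2.

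Most genes that sense nucleic acids or relay type I interferon were lower. Of 30 such genes 21 fell and 0 rose (median -0.30), with between 17 and 21 lower when any 1 library was left out. Stat2, a subunit of the factor that drives interferon-stimulated genes, was at 219.6, 191 and 196 CPM against 136, 122 and 142 CPM (-0.60, SE 0.07, edgeR adjusted p = 1.1e-06). The RNA sensors Ddx58 (-0.40) and Ifih1 (-0.47), the endosomal receptors Tlr3 (-0.33), Tlr7 (-0.27) and Tlr9 (-0.40) and the kinase gene Eif2ak2 (-0.68, SE 0.06) were among the rest. A higher gene was called in 6 alternatives: 3 with library totals alone, 2 with the resting libraries alone, and 1 each with DESeq2 size factors in edgeR, with a mean of 5 CPM asked for, without siControl replicate 1 and without siEhd1 replicate 2. In the overlapping JAK, STAT and SOCS list 9 of 24 fell and 2 rose (median -0.16), and the 2 were 0 without siControl replicate 2 or siEhd1 replicate 2 and 1 without any other single library except siControl replicate 1 or with the replicate block. Stat3 (-0.30), Socs3 (-0.97) and Socs6 (-0.33) were lower with it.

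Regulators of macrophage identity, growth factor signalling and the clock were mostly lower where they changed. Of 34 lineage transcription factor genes 10 fell and 4 rose (median -0.07). Id3, an inhibitor of basic helix-loop-helix factors, was at 39.2, 35.9 and 38.2 CPM against 22.1, 24.6 and 21.7 CPM (-0.73, SE 0.07, edgeR adjusted p = 2.2e-07), and Klf4, a monocyte differentiation factor, rose from 22.6, 26.2 and 26.5 CPM to 42.1, 47.7 and 39.9 CPM (0.78, SE 0.08, edgeR adjusted p = 5.2e-07). Klf2, of the same family, fell (-0.53), as did Nr1h3 (-0.36). Of 27 TGF-beta, SMAD and ID genes 8 fell and 2 rose, with the co-receptor gene Eng at -0.59 (SE 0.07). The 2 were 0 without siEhd1 replicate 2, 1 without siEhd1 replicate 1, with a mean of 5 CPM or with DESeq2, and 4 with library totals alone. Of 15 clock genes 8 fell and 0 rose (median -0.30). Tef was at 131, 123 and 120.0 CPM with siControl against 90.3, 92.9 and 100 CPM (-0.40, SE 0.06, edgeR adjusted p = 1.6e-05), and Nfil3 (-0.57), Per1 (-0.30), Per3 (-0.40), Nr1d1 (-0.30) and Dbp (-0.31) fell with it, so that activators and repressors of the same clock elements fell alike. With the resting libraries alone 1 clock gene was higher.

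Signalling and cell death lists gave smaller counts. Of 31 MAP kinase and phosphatase genes 6 rose and 6 fell, with Map3k3 (-0.52, SE 0.05) lower and the ERK inhibitor gene Spred1 (0.37, SE 0.05) higher, and 3 rose without siControl replicate 1. Of 27 apoptosis regulators 6 fell and 2 rose. The BH3-only genes Bmf (-0.45), Bcl2l11 (-0.28) and Bbc3 (-0.36), whose products promote death, were lower, and so was the survival gene Mcl1 (-0.20), while Bcl2 was higher (0.50). The 2 were 0 without siEhd1 replicate 1 and 1 without siControl replicate 1 or 3. Of 21 inflammasome genes 5 fell and 1 rose, with Casp1 (-0.24), Casp4 (-0.49, SE 0.11) and the interleukin-18 antagonist gene Il18bp (-0.71, SE 0.15) lower, and 3 fell without siControl replicate 2 or with library totals alone. Of 32 genes of small RNA silencing and mRNA decay 7 fell and 1 rose, among them Ago1 (-0.25), Zfp36l2 (-0.35) and Zfp36l1 (-0.41). That 1 was 2 or 3 in 8 alternatives, namely without siControl replicate 2 or 3, without siEhd1 replicate 2 or 3, with DESeq2 size factors in edgeR, with library totals alone, with a mean of 5 CPM and with the resting libraries alone.

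The sequence GCCTTGT was taken from an earlier account of these same data, as frequent in 3′ UTRs of the lower genes. It was then followed by size of change, copy number and neighbouring base. In the longest annotated 3′ UTR of each of 11520 tested genes (GENCODE M21, GRCm38), it occurred in 28.4% of lower genes, 9.53% of higher genes and 12.8% of genes not called. Its share among lower genes did not grow with the size of the fall: it was 26.6% for a log2 fold change under 0.25, 31.1% for 0.25 to 0.5, 27.8% for 0.5 to 1, and 7 of 47 genes (14.9%) beyond 1. Among the named genes that fell, 5 of the 10 moderate decreases carried it, 1 of the 10 chosen by level and 3 of the 10 chosen by size, against 1 (Dab2), 0 and 0 of 10 among those that rose. The windows below show every copy in the 5 moderate decreases that carried it, in capitals, with 8 bases on either side, read 5′ to 3′ on the mRNA strand, so that the bases around the copies can be compared.
Leprot, copy 1, chr4:101658177-101658199, plus strand: ttactatgGCCTTGTagacagct
Leprot, copy 2, chr4:101659190-101659212, plus strand: atattttgGCCTTGTgcatgaca
Cyth1, chr11:118164213-118164235, minus strand: ttgtttttGCCTTGTaaactagc
Sypl, chr12:32975759-32975781, plus strand: tctagcatGCCTTGTtgccaaca
Helz2, chr2:181228142-181228164, minus strand: tgtttactGCCTTGTatcctaca
B4galt5, copy 1, chr2:167299649-167299671, minus strand: ttggccagGCCTTGTtttttctt
B4galt5, copy 2, chr2:167299475-167299497, minus strand: gttgacctGCCTTGTcttacggt
B4galt5, copy 3, chr2:167298843-167298865, minus strand: aactgcctGCCTTGTgtgtgcgc

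The base after the copy varied. Over the 34 copies in 25 named genes that fell it was A in 9, C in 7, G in 10 and T in 8. Over all genes with a single copy, those with A after it had a median log2 fold change of -0.14 (238 genes, 35.7% called lower), against -0.05 with C, -0.06 with G and -0.08 with T (19.7%, 24.2% and 27.2% lower). Copy number graded the change too: genes with no copy had a median of 0.00 (9840 genes, 12.2% lower), genes with 1 copy -0.08 (1456 genes, 25.9% lower) and genes with 2 or more -0.16 (224 genes, 43.8% lower). UTR length rose along with it, with medians of 1197, 2472 and 4059 bases, and its part in the gradient was not tested. Among all 16384 sequences of 7 bases, GCCTTGT had the largest difference in share between lower and uncalled genes, 15.6 percentage points, ahead of TGCCTTG (11.7) and TGGCCAG (9.58), and it ranked first among short UTRs (7.80 points) and among long UTRs (18.3 points) as well. Because GCCTTGT was taken from an earlier account of these data, its first rank is a description and no separate support. For higher genes the leading sequence was TTTTTAA, by 7.29 points. With the shortest annotated 3′ UTR instead, GCCTTGT was in 14.5% of lower, 3.99% of higher and 6.13% of uncalled genes. Whether either siRNA matches this sequence was not tested, since no label gives the siRNA sequences. The UTRs of Ehd1 and Sort1 held no copy.

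**Figure D4:**
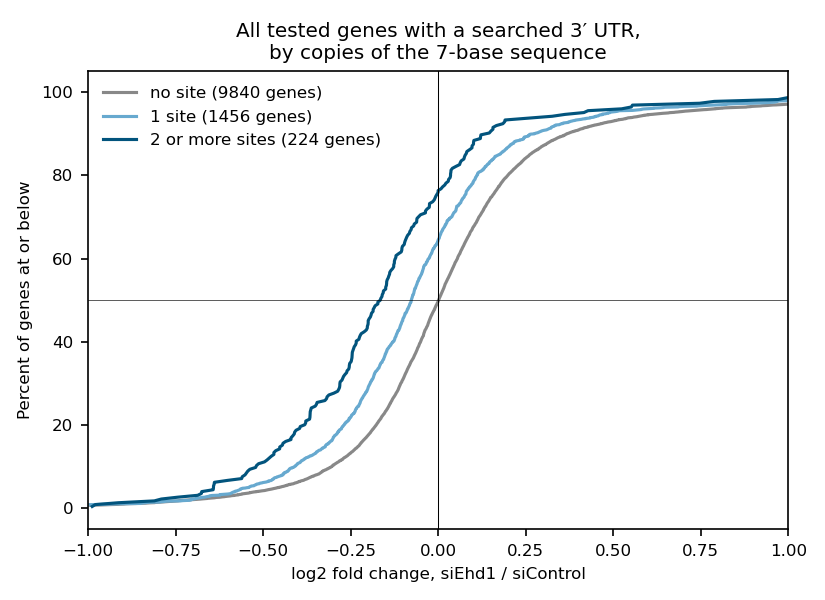
Percent of tested genes with a searched 3′ UTR (vertical axis) at or below each log2 fold change (siEhd1 relative to siControl, horizontal axis), for genes with 0, 1 and 2 or more copies of the 7-base sequence. The curves shift to the left with copy number, with medians of 0.00, -0.08 and -0.16.

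Over the members of all lists with a searched UTR, 50 of 168 carriers (29.8%) and 125 of 984 others (12.7%) were lower, and no test of this difference was run. The sequence was chosen on these same data as frequent in lower genes. So this difference and the list counts below are descriptions and no separate support. Over all searched genes, UTRs with copies were also longer. The lists varied. In the ER list 2 of 5 carriers (Srpr and Sec61a1) and 0 of 21 others fell, in the V-ATPase list 2 of 3 and 0 of 14, in the Rab list 4 of 7 and 3 of 28, and in the SNARE list 4 of 9 and 3 of 23. In the clock list 2 of 3 carriers and 6 of 12 others fell, and in the interferon signalling list 2 of 4 and 18 of 25. The JAK, STAT and SOCS list went the other way, with 1 of 7 carriers and 8 of 17 others lower, and 0 of 4 carriers fell in the COPI and COPII list and 0 of 6 in the replication list.

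Promoters differed by size of change in another way. The core of the interferon-stimulated response element, that is GAAA, any 2 bases and GAAA, on either strand, was searched in the 250 bases before to 50 after the start of each gene (RefSeq, GRCm38.p6). It occurred in 3.44% of all 32851 promoters, in 3.36% of those of uncalled genes, 3.39% of higher genes and 7.56% of lower genes. Among lower genes the share grew from 3.16% under a log2 fold change of 0.25 to 7.29% at 0.25 to 0.5 and 39 of 229 genes (17.0%) at 0.5 to 1, with 5 of 36 (13.9%) beyond 1. Named genes that fell and held the core, but are not shown, were Fcgr4, Clec4d, Ifitm3, Mapkapk3, Lgals9, Gosr2, Atp6v1d and Eif2ak2. The windows below are from others of these named genes, picked without a rule. They show the core, or its reverse complement, in capitals within 26 bases of the gene's own strand.
Isg15, chr4:156200879-156200904, minus strand: tgccgtagGAAAAGGAAAccgaaaca
Mnda, chr1:173913066-173913091, minus strand: aagccaggGAAATTGAAAgctatgaa
Ctss, chr3:95526757-95526782, plus strand: ctttaaatGAAACCGAAAtgaaagtt
Stat2, chr10:128270268-128270293, plus strand: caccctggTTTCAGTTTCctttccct
Rsad2, chr12:26456555-26456580, minus strand: ggtccaacTTTCATTTTCagaaaaca

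Of genes with both regions searched, 316 had the promoter core without the UTR sequence and 26.3% of them were lower, 1275 had the UTR sequence without the core and 27.6% were lower, 48 had both and 37.5% were lower, and of the 7574 with neither 11.5% were lower. The lower genes with the core alone had a median of -0.42 and those with the UTR sequence alone -0.30, against -0.28 for lower genes with neither, so 872 of the lower genes had neither sequence in these windows. On the higher side, the cell cycle homology region TTTGAA was searched on either strand. It was in 17.9% of all promoters, 13.8% of uncalled genes and 18.2% of higher genes. Among higher genes its share was 12.4% under 0.25, 12.7% at 0.25 to 0.5 and 23.8% at 0.5 to 1. It was 33.8% (71 of 210) at 1 and over, though 1 of 14 at 2 and over. Among lower genes at 1 and over it was 22.2% (8 of 36). The CCAAT box, also searched on both strands, was in 42.9% of uncalled genes, 40.7% of lower genes and 47.2% of higher genes. It was in 56.7% (119 of 210) of those higher by 1 and over, and in 3 of 14 of those higher by 2 and over. A match is a description of the letters and not evidence of binding.

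**Figure D5:**
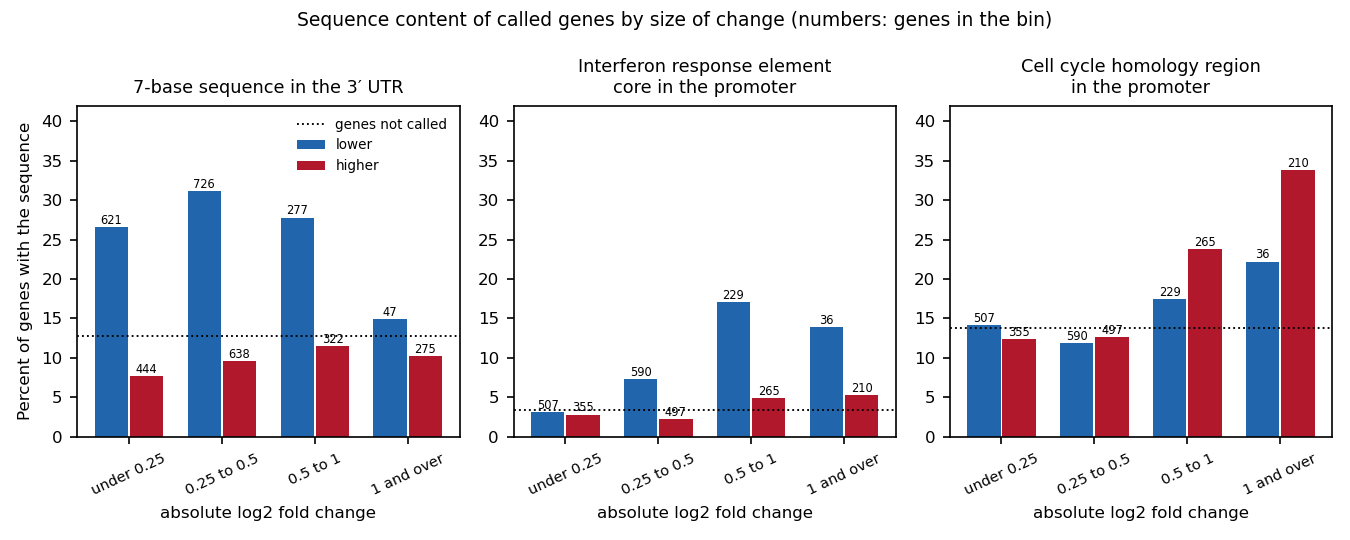
Percent of called genes (vertical axis) with the 7-base sequence in the 3′ UTR (left), the interferon response element core in the promoter (middle) and the cell cycle homology region in the promoter (right), by absolute log2 fold change (horizontal axis) and direction, with the number of genes above each bar and the share among uncalled genes dotted. The UTR sequence is frequent at small falls, from 26.6% under 0.25, whereas the promoter sequences are near the dotted line under 0.25 and reach 17.0% and 33.8% at larger changes.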

How the data were processed

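Raw counts per gene symbol were used as the authors deposited them. The submitters' processing notes name, with no order or role, STAR 2.7.6a, featureCounts 2.20.0, Trim Galore 0.6.3, cutadapt, FastQC 0.10.1, R 4.4.2 and DESeq2 1.46.0, and mm10 as the build. Per the labels' protocols, libraries were made after polyA enrichment. The annotation, the strand setting and the handling of reads that fit several genes are named by neither labels nor headers.

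Counts of all 12 libraries were fitted with edgeR 4.0.16 (R 4.3.3, limma 3.58.1): filterByExpr by group (minimum count 10, minimum total 15; 12164 of 17270 genes with counts kept, at most 0.039% of a library's counts removed), TMM, 1 mean per group, robust quasi-likelihood F test with 8 residual degrees of freedom, and Benjamini-Hochberg adjustment at 0.05. The other 6 libraries, given lipopolysaccharide, entered only to estimate the spread. SE was taken as |log2 fold change| over the root of the F statistic. The test of a change over 1.2-fold was glmTreat. All adjusted p-values come from edgeR unless another tool is named. CPM values use TMM scaling; levels per length divide by the exon length of GENCODE M21 (23376 of 24421 symbols matched directly, 651 as older symbols, 394 not at all). In simulated counts for this comparison over 12164 genes, 10 of 11964 unchanged genes were called. The changed genes were drawn only from those with a resting mean of 10 CPM or more. Of 50 such genes per size, 44% were called at 1.2-fold, 94% at 1.5-fold, 100% at 2-fold and 98% at 3-fold.

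The comparison, the gene lists, the sequences searched and the rules for naming genes were chosen with earlier results of these data known. Named were Ehd1, Ehd4 and Sort1, then, among called genes whose resting groups did not overlap and that earlier text had not named, 10 per direction by level per length, 10 by size at 50 CPM or more, 10 with the smallest p among log2 fold changes of 0.3 to 1 at 50 CPM or more in both groups, and up to 3 per list, with predicted genes, pseudogenes and histone, mitochondrial and ribosomal protein genes left out. Further list members are named outside this rule. A few genes that the rule or lists hold are not reported here. Within each resting group, no pair of libraries looked like a repeat of 1 library (chi-square over its degrees of freedom 4.00 to 8.25). Alternatives were other scalings, filters and tools (DESeq2 1.42.0, limma-voom), the resting libraries alone, a replicate block, each library left out, and the shortest 3′ UTR. The longest 3′ UTR of at least 50 bases was searched for 11520 genes, and promoters came from RefSeq.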

Additional observations from a re-analysis of the deposited data

How the results depend on the processing

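No gene named by the rule reversed under any alternative, and reversal was not checked for other genes. The main counts were 1704 higher and 1728 lower genes, and 561 and 338 by more than 1.2-fold. Leaving out each library in turn gave 1201 to 1661 higher and 1148 to 1503 lower genes, and 410 to 586 higher and 225 to 324 lower by more than 1.2-fold; the lowest of the lower counts came without M0_siCON replicate 1 (1148) and the lowest over 1.2-fold without M0_siEHD1 replicate 1 (225). Over 1.2-fold, DESeq2 gave 356 higher and 182 lower genes and limma-voom 209 lower; the cause was not tested. The share of lower genes with GCCTTGT was 28.4% with the longest annotated 3′ UTR and 14.5% with the shortest, where less sequence is searched. Same-numbered libraries did not deviate together (correlations of -0.256, -0.206 and -0.437), so the numbers do not pair them. Correlations were 0.448, 0.331 and 0.392 for siControl replicates 1, 2 and 3 with siEhd1 replicates 3, 1 and 2. The remaining 3 were -0.201, -0.085 and 0.024. Whether libraries are paired in another order was not tested. A replicate block by number gave 1463 higher and 1391 lower genes, and 2812 of the 3432 calls were shared with it. With library totals alone 59.5% of calls were higher, against 50.4% with DESeq2 size factors in edgeR. Of 188 called genes named by the rule, 19 changed call under at least 1 alternative and 0 reversed. Changes near 1.2-fold were called less often in simulation than larger ones, and genes under 1 CPM less often in the data than more abundant ones.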
